A study of Mus musculus with 8 samples.

Results

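The genes described here are 39 interferon-stimulated genes of the mouse, chosen by name, in whole blood taken after 6 hours of restraint. They were chosen with earlier results of these data known. Of the 39, 37 had a row in the count table, and all of these 37 passed the filter for testing, 10 or more counts in 4 or more samples, as 11718 genes did in all. The antiviral GTPase genes Mx1 and Mx2 were not analysed here. The control group held 4 samples and the stress group 4 samples, all peripheral blood of female wild-type C57BL/6 mice aged 6-8 weeks. Stress mice were held in a ventilated tube, and control littermates stayed in their cage. Food and water were withheld from both groups, so neither is a fed baseline. The labels number the samples without saying whether each came from 1 mouse, so p-values measure the spread between these samples.

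Type I interferons are secreted proteins that bind a receptor of the chains IFNAR1 and IFNAR2 and, through the kinases JAK1 and TYK2, activate a complex that includes STAT2 and IRF9. This complex enters the nucleus and binds the interferon-stimulated response element, a short repeat of GAAA-like letters in front of its target genes. The targets include sensors of viral nucleic acid, enzymes that degrade RNA or block translation, and the ubiquitin-like protein ISG15 with the enzymes that attach and remove it. In blood many of these genes are also transcribed at a basal level without infection.

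The response element is what many of these genes are known for, so its letters are shown here for a few of them. The pattern GAAA, any 2 bases, GAAA was searched on both strands, overlapping matches included, in the RefSeq promoter windows (GRCm38.p6, 250 bases before to 50 bases after the gene start). A window was found for 29 of the 39 genes, and 12 of these 29 (41.38%) held the pattern, against 3.993% of all 27025 genes with a window. Counting only the bases before the start, 8 of 29 (27.59%) held it, against 3.463% of all genes. A match is a description of letters, not of binding. Below are stretches from before the start of Isg15 and Oas3, which rose after stress, and of Ifit1, Rsad2 and Stat2, which did not pass the edgeR test. The capitals mark the pattern or its reverse complement, and the sequences are written 5′ to 3′ on the strand of the gene.
Isg15: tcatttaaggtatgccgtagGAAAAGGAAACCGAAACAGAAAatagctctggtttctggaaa
Oas3: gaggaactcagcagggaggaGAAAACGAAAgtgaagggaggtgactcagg
Ifit1: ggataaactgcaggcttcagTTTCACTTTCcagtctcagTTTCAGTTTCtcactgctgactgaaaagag
Rsad2: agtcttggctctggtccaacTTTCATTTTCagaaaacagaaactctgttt
Stat2: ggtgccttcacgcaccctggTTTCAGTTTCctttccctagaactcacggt
Isg15 (chr4:156200855-156200916, minus strand) held 3 matches that overlap one another, the first starting at base -78 before the gene start. Oas3 (chr5:120777705-120777754, minus strand) held 1 match from -75, and Ifit1 (chr19:34640765-34640833, plus strand) held 2, from -104 and -85. Rsad2 (chr12:26456543-26456592, minus strand) held 1 from -120 and Stat2 (chr10:128270256-128270305, plus strand) 1 from -222. Ifit3, Oas1a and Trim30a also held the pattern before the start, and Ifih1, Ddx58, Eif2ak2 and Ifitm3 only after it. Of the other genes that rose, Ifit2, Oasl2 and Lgals3bp had windows without the pattern, and Rtp4 had no window.

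The libraries held 31471145 to 39014775 counts in the control group and 25978683 to 29655725 in the stress group. Haemoglobin transcripts made up 51.9% to 63.8% of a control library and 61.2% to 75.5% of a stress library. Stress replicate 3 had the largest haemoglobin share and the fewest counts outside haemoglobin, 6352711. Levels are given as CPM, the count relative to the library size after TMM scaling, which takes most genes as unchanged. On this scale the log2 fold changes of the tested genes had a median of -0.02, and with libraries scaled by total counts alone of -0.82. A count of 3, taken as the floor of detection, was worth 0.0433 to 0.0946 CPM in the control samples and 0.096 to 0.228 CPM in the stress samples, which covers counting error only.

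After stress, 7 of the 37 genes rose and 0 fell at an adjusted p under 0.05 (quasi-likelihood test of edgeR, Benjamini-Hochberg over all genes). The 7 were Isg15, Ifitm3, Oasl2, Oas3, Rtp4, Lgals3bp and Ifit2, with log2 fold changes from 0.45 to 1.14. The 7 are 18.9% of the 37, and 10.4% of all tested genes were called higher at the same threshold. Called lower were 0% of the 37 and 3.69% of all tested genes. Before adjustment, 12 of the 37 had p below 0.05 and lay higher (32.4%, against 18.2% of all tested genes), and 2 lay lower (5.41%, against 13%). DESeq2 called 8 higher and 0 lower, against 13.5% and 5.62% of all tested genes, and limma-voom called 4 and 0, against 10.5% and 3.75%. The median log2 fold change of the 37 genes was 0.24, and 25 lay above 0 (67.6%, against 47.1% of all tested genes). Scaled by total counts alone, 0 of the 37 were called higher and 13 lower, their median was -0.62, and before adjustment 0 lay higher and 16 lower with p below 0.05. In that scaling 0.444% of all genes were called higher and 49.6% lower. Leaving out 1 sample in turn changed the number called higher. Without control replicate 2 it was 0 (11 at an unadjusted p below 0.05), against 5.27% of all tested genes. It was 2 (5.41%) without control replicate 1, control replicate 3, stress replicate 1 or stress replicate 3. In these fits, in the same order, 8.08%, 5.91%, 8.52% and 9.74% of all tested genes were called higher. In the fits that gave 0 or 2, the share of the list thus lay below that of all tested genes. It was 6 without stress replicate 2 or 4 (against 8.31% and 11.2% of all tested genes) and 11 without control replicate 4 (against 12.1%).

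**Figure D1:**
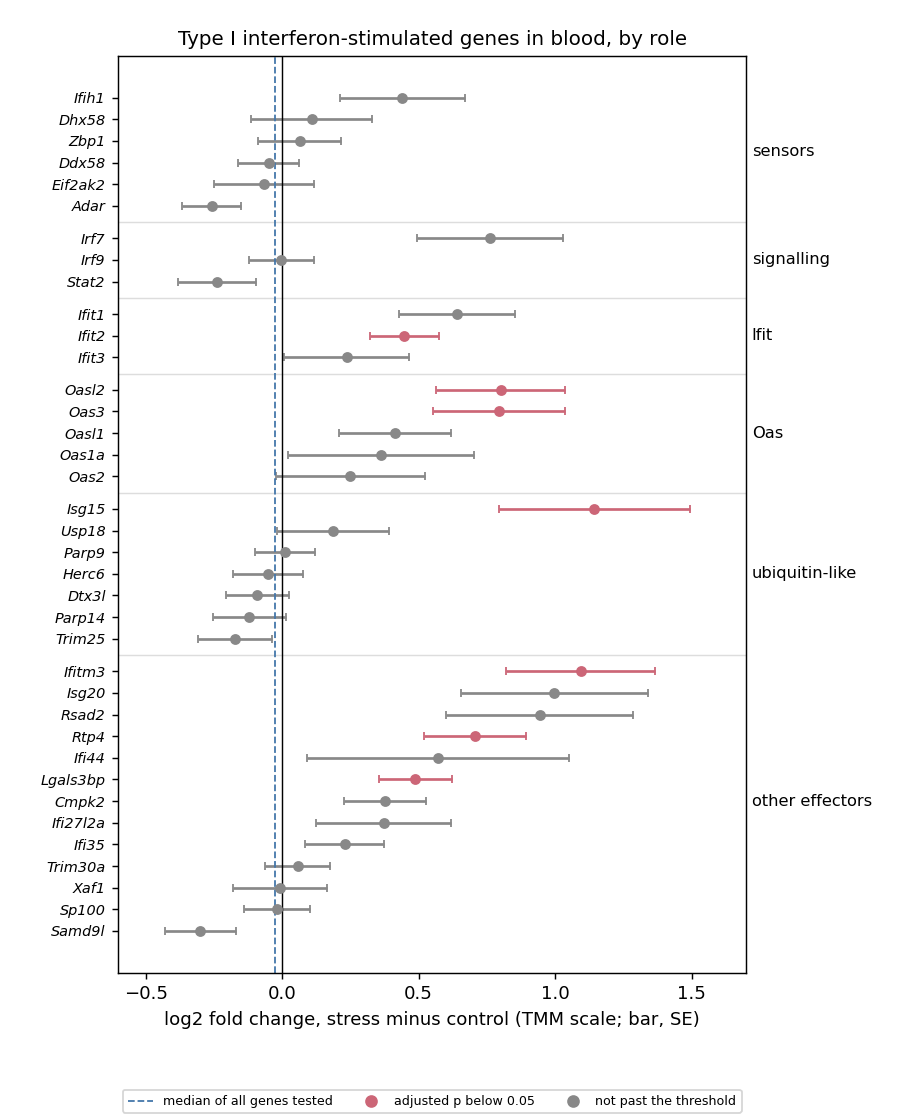
Log2 fold change of stress minus control on the TMM scale for the 37 genes (points, with the standard error as bars), grouped by role, with the median of all tested genes as a dashed line. Red points passed an adjusted p below 0.05. The 7 red points lie between 0.45 and 1.14, and 20 of the 37 genes lie within 0.3 of zero.

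None of the 37 genes passed the thresholds of the study, an absolute log2 fold change above 1 with an adjusted p below 0.01, which 1.69% of all genes passed as higher and 0.0171% as lower. Ifitm3 did so as higher with DESeq2 and in edgeR without control replicate 4. On total counts alone Samd9l did so as lower (log2 fold change -1.07, edgeR adjusted p = 0.00984). The groups were fully apart, with stress above, in 3 of the 37 (8.11%), and with stress below in 1 (2.70%), against 11.1% and 9.87% of all tested genes. The groups overlapped in the genes with the 5 largest log2 fold changes, Isg15, Ifitm3, Isg20, Rsad2 and Oasl2.

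**Figure D2:**
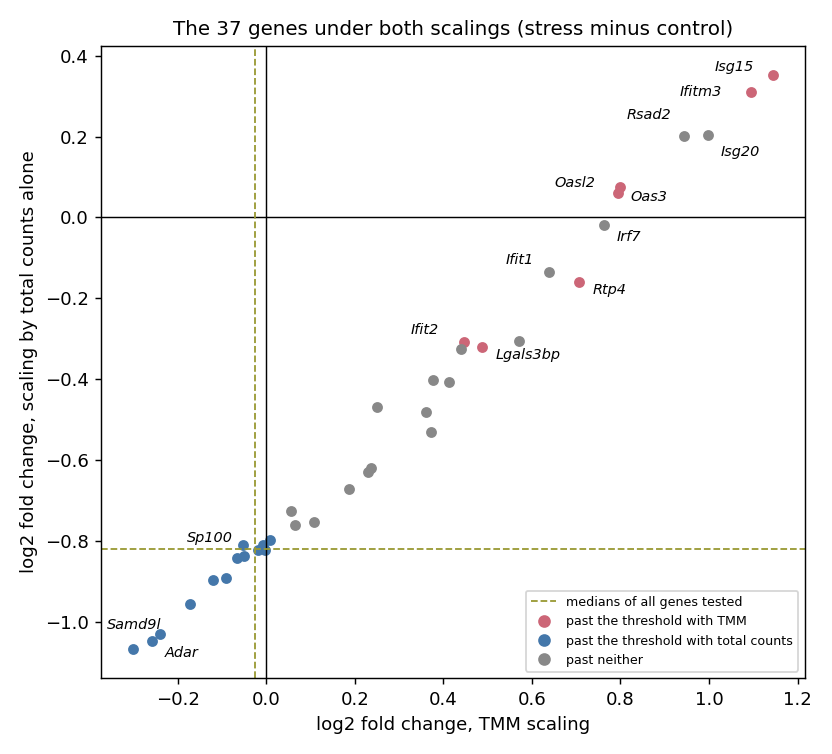
Log2 fold change of stress minus control for the 37 genes with TMM scaling (horizontal) and with scaling by total counts alone (vertical), with dashed lines at the medians of all tested genes. The genes keep nearly the same order on both axes. Isg15, Ifitm3, Isg20, Rsad2, Oasl2 and Oas3 lie above 0 on both, and the 13 genes called lower on total counts lie within 0.3 of zero with TMM.

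Among the antiviral effectors, Ifitm3 rose the most. It encodes a membrane protein that hinders the entry of viruses (GRCm38 chromosome 7, 141009586 to 141010770, minus strand). Its level was 21.9, 12.9, 17.6 and 29.5 CPM in control replicates 1 to 4 and 50.9, 26.7, 61.2 and 36.2 CPM in stress replicates 1 to 4. Stress replicates 3 and 1 were the highest, and stress replicate 2 lay below control replicate 4, so the groups overlapped. The means were 20.5 ± 7.05 CPM in the control group and 43.8 ± 15.3 CPM in the stress group (SD, n = 4 each), a log2 fold change of 1.09 (standard error 0.27, edgeR adjusted p = 0.0218). Without control replicate 2, control replicate 3 or stress replicate 3 the adjusted p was 0.0512, 0.0752 and 0.143.

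Rtp4, a chaperone of receptors that is also interferon-inducible (chromosome 16, 23520291 to 23614222, plus strand), was scarcer. Its level was 6.52, 6.21, 9.49 and 7.28 CPM in control replicates 1 to 4 and 14.3, 9.51, 15.4 and 9.54 CPM in stress replicates 1 to 4. The groups did not overlap, but stress replicate 2 and control replicate 3 differed by less than 0.1 CPM. The log2 fold change was 0.71 (standard error 0.19, edgeR adjusted p = 0.0252). The call was lost without control replicate 1 (0.0696), control replicate 2 (0.0883), stress replicate 1 (0.0681) or stress replicate 3 (0.0524). On total counts alone the log2 fold change was -0.16.

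Lgals3bp encodes a secreted glycoprotein that binds galectins (chromosome 11, 118392751 to 118402092, minus strand). Its level was 24.1, 20.7, 28.7 and 29.1 CPM in control replicates 1 to 4 and 41.8, 32.3, 38.4 and 31.5 CPM in stress replicates 1 to 4. All stress samples lay above all control samples. The log2 fold change was 0.49 (standard error 0.13, edgeR adjusted p = 0.0296), and -0.32 on total counts alone. Without control replicate 1, control replicate 2 or stress replicate 1 the adjusted p was 0.0805, 0.108 and 0.0703.

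Isg20 and Rsad2 were the most abundant of the effectors, and neither passed the test. Isg20, an exonuclease that degrades RNA (chromosome 7, 78913424 to 78920396, plus strand), had 1224, 786, 547 and 1519.9 CPM in control replicates 1 to 4 and 1898, 1953, 3034 and 1252 CPM in stress replicates 1 to 4. Control replicate 4 lay above stress replicate 4, and stress replicate 3 stood highest. The raw counts of Isg20 lay between 37877 and 48206 in the control samples and between 39124 and 42569 in the stress samples, so the groups' raw counts overlapped. The log2 fold change was 1.00 (standard error 0.34, edgeR adjusted p = 0.0670) with TMM and 0.20 with total counts alone. Rsad2 encodes viperin, an enzyme that makes a nucleotide analogue stopping viral polymerases (chromosome 12, 26442746 to 26456452, minus strand). It had 670.5, 377, 272 and 795 CPM in control replicates 1 to 4 and 1344, 925, 1197 and 598 CPM in stress replicates 1 to 4. Its groups overlapped, with stress replicate 4 below control replicates 1 and 4, and the log2 fold change was 0.94 (standard error 0.34, edgeR adjusted p = 0.0832). Both genes passed without control replicate 4 (adjusted p = 0.0357 for Isg20 and 0.0364 for Rsad2) and without stress replicate 4 (0.0362 and 0.0381).

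**Figure D3:**
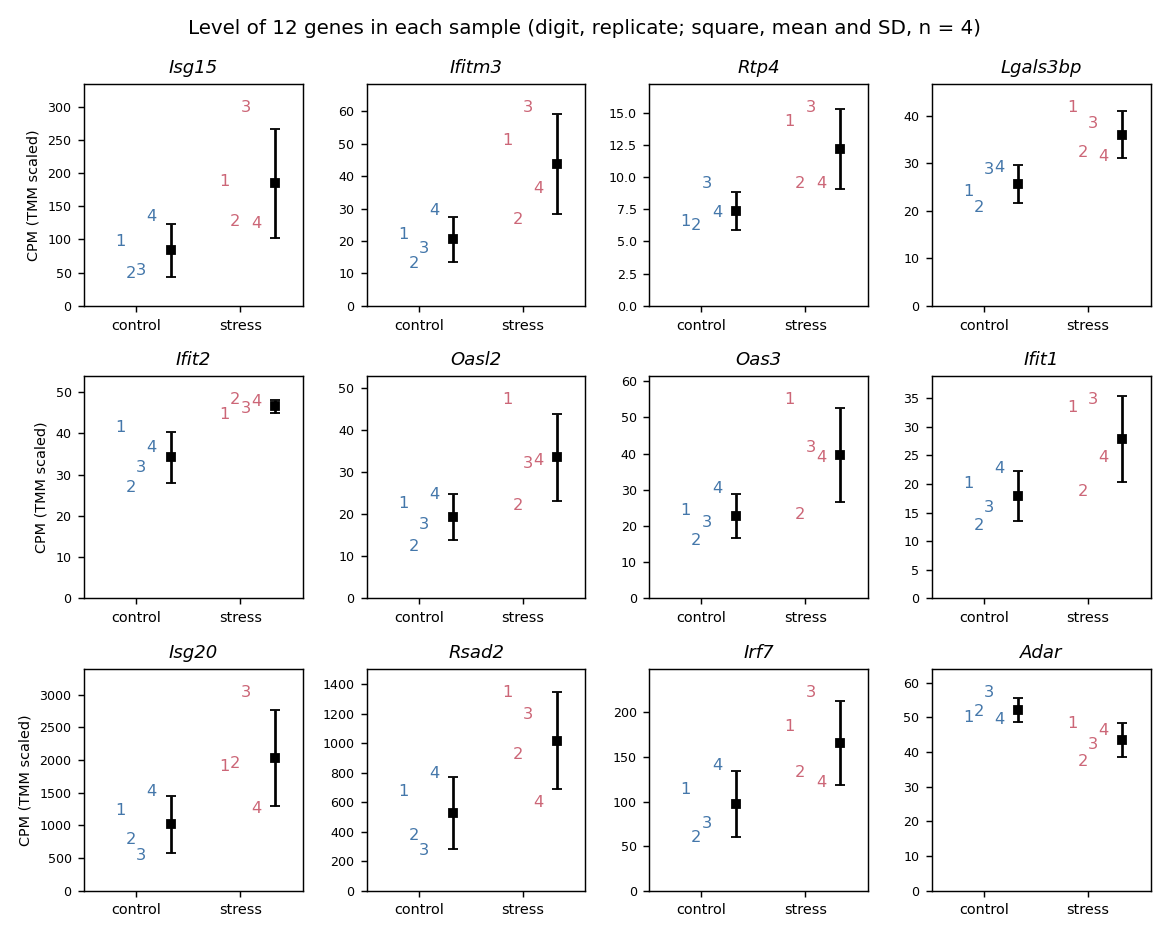
CPM on the TMM scale of 12 genes in each of the 8 samples, with digits for the replicate number and a square with bars for the mean and SD (n = 4), every axis starting at 0. Rtp4, Lgals3bp and Ifit2 separate the groups upward and Adar downward, and in the other 8 panels control and stress samples overlap.

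Of the remaining 8 effectors, none passed the test by edgeR, DESeq2 or limma-voom, and at an unadjusted p below 0.05 Cmpk2 was higher and Samd9l lower. Cmpk2, a nucleotide kinase beside Rsad2 on chromosome 12, had a log2 fold change of 0.38 (standard error 0.15). Ifi44, the scarcest of the 37, had 8 to 31 counts in the controls and 7 to 12 after stress, so its value of 0.57 (standard error 0.48) is not distinguishable from 0 at this depth. Ifi27l2a (0.37), Ifi35 (0.23), Trim30a (0.06) and Xaf1 (-0.01) had smaller log2 fold changes. Sp100, a component of nuclear bodies, was the steadiest of the 37 among the control samples. Its level was 157, 150.0, 162 and 162 CPM in control replicates 1 to 4 and 165, 136, 172 and 150.4 CPM in stress replicates 1 to 4. Its groups overlapped (log2 fold change -0.02, standard error 0.12). Samd9l, a restriction factor of poxviruses, had the lowest log2 fold change of the 37, -0.30 (standard error 0.13, edgeR adjusted p = 0.135). It had 105, 114, 119 and 96.7 CPM in control replicates 1 to 4 and 96.05, 82.7, 73.1 and 101 CPM in stress replicates 1 to 4, and stress replicate 4 lay above control replicate 4.

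The 3 Ifit genes encode proteins that bind foreign RNA and hold back its translation. All 3 log2 fold changes were above 0 on the TMM scale and below 0 on total counts alone, and edgeR and limma-voom called Ifit2 alone, while DESeq2 also called Ifit1. Ifit2 (chromosome 19, 34550694 to 34576419, plus strand) had 41.5, 26.99, 31.7 and 36.6 CPM in control replicates 1 to 4 and 44.5, 48.1, 45.995 and 47.6 CPM in stress replicates 1 to 4. The 4 stress samples were close together and all above the controls. The means were 34.2 ± 6.23 CPM in the control group and 46.6 ± 1.61 CPM in the stress group (SD, n = 4 each), a log2 fold change of 0.45 (standard error 0.13, edgeR adjusted p = 0.0336). It was lost without control replicate 2 (0.116), control replicate 3 (0.101) or stress replicate 2 (0.0641). Ifit1 had 20.02, 12.8, 15.97 and 22.8 CPM in control replicates 1 to 4 and 33.4, 18.7, 34.7 and 24.6 CPM in stress replicates 1 to 4. The groups of Ifit1 overlapped, stress replicate 2 lying below control replicates 1 and 4, and the log2 fold change was 0.64 (standard error 0.21, edgeR adjusted p = 0.0649). It passed without control replicate 4 (0.0306), without stress replicate 2 (0.0242) and with DESeq2 (0.0334). Ifit3 had 0.24 (standard error 0.23).

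Oas enzymes sense double-stranded RNA and make a messenger that switches on RNase L, and Oasl1 encodes a related protein without that activity. Of the 5 genes, 2 rose with edgeR and with DESeq2, and limma-voom called 0 (adjusted p = 0.0746 for Oasl2 and 0.0944 for Oas3). Oasl2 (chromosome 5, 114896936 to 114912234, plus strand) had 22.5, 12.3, 17.6 and 24.8 CPM in control replicates 1 to 4 and 47.1, 22.1, 32.03 and 32.7 CPM in stress replicates 1 to 4. Oas3 (chromosome 5, 120753098 to 120777661, minus strand) had 24.3, 15.98, 20.8 and 30.4 CPM in control replicates 1 to 4 and 54.8, 23.05, 41.7 and 38.9 CPM in stress replicates 1 to 4. In both genes stress replicate 1 was the highest sample and stress replicate 2 lay below control replicate 4. The log2 fold changes were 0.80 (standard error 0.24, edgeR adjusted p = 0.0440) and 0.79 (standard error 0.24, edgeR adjusted p = 0.0488), and on total counts alone 0.08 and 0.06. Of the 8 fits that left out a sample, both genes passed in those without control replicate 4 or stress replicate 2. In the other 6, adjusted p-values were 0.0516 to 0.161 for Oasl2 and 0.0738 to 0.195 for Oas3. Oas2 had 9.75, 7.41, 12.8 and 8.95 CPM in control replicates 1 to 4 and 11.1, 6.3996, 9.56 and 18.8 CPM in stress replicates 1 to 4, the highest being stress replicate 4 and the lowest stress replicate 2. Its log2 fold change was 0.25 (standard error 0.27) and changed sign to -0.11 without stress replicate 4. Oasl1 had 0.41 and Oas1a 0.36 on the TMM scale, and both were below 0 on total counts alone. Oas, Ifit and Ifitm genes have close relatives in the genome, and how reads shared between copies were counted is not given in the sources used here.

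ISG15 is a small ubiquitin-like protein that is joined to newly made proteins, and it is secreted as well. Isg15 (chromosome 4, 156199424 to 156200818, minus strand) had the largest log2 fold change of the 37. Its level was 96.7, 48.4, 53.7 and 135 CPM in control replicates 1 to 4 and 188, 126, 299 and 124 CPM in stress replicates 1 to 4. Control replicate 4 lay above stress replicates 2 and 4, and stress replicate 3 stood well above the other 7 samples. The means were 83.4 ± 40.4 CPM in the control group and 184 ± 81.8 CPM in the stress group (SD, n = 4 each), a log2 fold change of 1.14 (standard error 0.35, edgeR adjusted p = 0.0497). Of the 8 fits that left out a sample, Isg15 passed only in that without control replicate 4 (0.0138), and the others gave 0.0509 to 0.245. With DESeq2 and limma-voom the adjusted p was 0.0729 and 0.076.

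The other 6 genes grouped here under ubiquitin-like marks, a group that also holds Parp9 and Parp14, did not pass the test by edgeR, DESeq2 or limma-voom. They did not pass at an unadjusted p below 0.05 either. Usp18, the protease that removes ISG15, had a log2 fold change of 0.19 (standard error 0.20). Herc6, the ligase that attaches it in mice, had -0.05 (standard error 0.13). Trim25, a ligase that activates the sensor RIG-I, had 57.7, 65.6, 64.3 and 58.1 CPM in control replicates 1 to 4 and 70.01, 51.98, 43.8 and 52.01 CPM in stress replicates 1 to 4. Its groups overlapped, with stress replicate 1 the highest of all and stress replicate 3 the lowest (log2 fold change -0.17, standard error 0.13). Dtx3l, which works with PARP9 at DNA damage and on viral targets, had 29.99, 31.2, 37.2 and 30.4 CPM in control replicates 1 to 4 and 30.9, 34.2, 25.6 and 30.1 CPM in stress replicates 1 to 4, with overlapping groups (log2 fold change -0.09). Parp9 had 0.01. The exons of Dtx3l and Parp9 overlap on opposite strands in GENCODE M21, and since the use of strand in counting is not given, reads from the shared part cannot be assigned with certainty. Parp14, an ADP-ribosyltransferase, had 54.95, 51.4, 60.5 and 50.9 CPM in control replicates 1 to 4 and 62.3, 48.7, 39.2 and 49.9 CPM in stress replicates 1 to 4, with stress replicate 1 the highest and stress replicate 3 the lowest of all (log2 fold change -0.12, standard error 0.13). Ube2l6 is no member of the 39 and was picked after its values were seen, since it encodes the enzyme that passes ISG15 to its ligases. Its level was 4496, 2751, 2112 and 5407 CPM in control replicates 1 to 4 and 7300.2, 7076, 11412 and 4392 CPM in stress replicates 1 to 4. Stress replicate 4 lay below control replicates 1 and 4, and the log2 fold change was 1.03 (standard error 0.38, edgeR adjusted p = 0.0865). Within each group its samples fell in the same order as the summed erythroid markers given below. Of all tested genes, 1.59% had that order in both groups.

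None of the 3 signalling genes passed the test with edgeR or limma-voom, and Irf7 was higher at an unadjusted p below 0.05 and with DESeq2. IRF7 is the transcription factor that drives most interferon-alpha genes. Irf7 (chromosome 7, 141262706 to 141266481, minus strand) had 114, 59.4, 76.04 and 140.4 CPM in control replicates 1 to 4 and 185, 133, 222 and 121 CPM in stress replicates 1 to 4. Control replicate 4 lay above stress replicates 2 and 4. The log2 fold change was 0.76 (standard error 0.27, edgeR adjusted p = 0.0767) and -0.02 on total counts alone. It passed without control replicate 4 (0.0226) and with DESeq2 (0.0305). Its exons overlap those of Phrf1 on the opposite strand, as those of Adar overlap Chrnb2, those of Eif2ak2 Gm26637 and, on the same strand, those of Irf9 Rnf31, so the reads shared by these pairs are uncertain. Irf9, the DNA-binding partner of STAT2, had 30.2, 33.2, 40.3 and 28.9 CPM in control replicates 1 to 4 and 35.6, 30.004, 32.7 and 34.02 CPM in stress replicates 1 to 4, with control replicate 3 the highest of all samples (log2 fold change -0.00356, standard error 0.12). Stat2 had 26.4, 25.6, 32.3 and 22.8 CPM in control replicates 1 to 4 and 27.9, 20.5, 18.4 and 23.9 CPM in stress replicates 1 to 4, with overlapping groups (log2 fold change -0.24, standard error 0.14).

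None of the 6 genes grouped here as sensors, Adar among them, passed the test by edgeR, DESeq2 or limma-voom. At an unadjusted p below 0.05 there were 0 higher and 1 lower. Adar, an enzyme that edits double-stranded RNA and so keeps the cell's own RNA from being sensed, had 50.01, 51.8, 57.2 and 49.3 CPM in control replicates 1 to 4 and 48.2, 37.4, 42.1 and 46.3 CPM in stress replicates 1 to 4. All stress samples lay below all control samples, with a log2 fold change of -0.26 (standard error 0.11, edgeR adjusted p = 0.126). Ddx58, which encodes the RNA sensor RIG-I, had 35.7, 32.9, 38.7 and 31.2 CPM in control replicates 1 to 4 and 35.3, 28.5, 33.2 and 36.8 CPM in stress replicates 1 to 4, and its groups overlapped (log2 fold change -0.05, standard error 0.11). Ifih1, the sensor MDA5, had a log2 fold change of 0.44 (standard error 0.23), Dhx58 0.11, Zbp1 0.06 and Eif2ak2, the kinase that halts translation, -0.07.

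Per kilobase of merged exons in GENCODE M21, the mean level in the control group was highest for Isg20 (548 CPM per kb), followed by Rsad2 (122), Isg15 (110.3), Ifitm3 (30.2) and Irf7 (25.8). Isg20 and Rsad2 alone took 42.7% to 66.8% of the summed CPM of the 37 genes in the control samples and 60.7% to 74.1% in the stress samples. The summed level of all 37 was 2993, 2097, 1920.0 and 3467 CPM in control replicates 1 to 4 and 4702, 3946, 5712 and 3049 CPM in stress replicates 1 to 4. Without Isg20 and Rsad2 the sum was 935 to 1152 CPM in the control group and 1068 to 1481 CPM in the stress group, so the groups overlapped on both sums.

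The 37 genes differed in how far the control samples lay apart. The highest control sample was over 2 times the lowest in 8 genes, namely Isg15, Isg20, Rsad2, Irf7, Oasl2, Ifitm3, Oas1a and Ifi44, and less than 1.5 times in 19 genes, among them Sp100 (1.08 times), Trim25 (1.14), Adar (1.16) and Ifih1 (1.17). In Rsad2 the ratio was 2.93, and in Isg15 and Isg20 2.78. Control replicates 1 and 4 both lay above control replicates 2 and 3 in 11 of the 37 genes (29.7%, against 24.1% of all tested genes) and both below in 8 (21.6%, against 20.3%). Of the 7 genes that rose, 5 had replicates 1 and 4 on top. Replicates 1 and 4 were likewise on top in 7 of 7 tested erythroid markers, 9 of 9 platelet, 8 of 10 non-classical monocyte, 9 of 14 neutrophil and 5 of 10 classical monocyte markers, and at the bottom in 10 of 10 B cell markers.

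Erythroid markers moved with the most abundant genes of the list. The summed level of Alas2, Slc4a1 and Epb42, genes of haem synthesis and of the red cell membrane, was 19448, 12390.1, 8997 and 24927 CPM in control replicates 1 to 4 and 30849.8, 27350.8, 41179 and 19007 CPM in stress replicates 1 to 4. Within each group the samples fell in the same order for this sum as for the summed level of the 37 genes, control replicate 4 and stress replicate 3 being the highest. Without Isg20 and Rsad2 the sum of the list did not keep that order in either group. It was 1098.5, 935, 1101 and 1152 CPM in control replicates 1 to 4 and 1459, 1068, 1481 and 1199 CPM in stress replicates 1 to 4. No single gene of the 37 had the complete erythroid order in both groups (1.59% of all tested genes did). Of the 7 erythroid markers tested, haemoglobin genes included, edgeR called 1 higher, and their median log2 fold change was 1.04. DESeq2 called 5 of the 7 higher, limma-voom 1 and edgeR on total counts alone 2. With the log2 of the erythroid sum as a covariate in the edgeR fit, an alternative added after the data were seen, 0 of the 37 genes were called higher or lower (1 higher and 0 lower at an unadjusted p below 0.05). In that fit 195 of all tested genes (1.66%) were called higher and 8 (0.0683%) lower. The median log2 fold change of the 37 stayed at 0.24 in that fit, and 31 lay above 0, against 25 without the covariate. The log2 fold change of Isg15 was then 0.24 (standard error 0.20), that of Ifitm3 0.54 (standard error 0.27) and that of Rtp4 0.66 (standard error 0.27). The erythroid sum itself differed between the groups, with means of 16440.5 CPM in control and 29597 CPM in stress samples. The fit with this covariate therefore cannot separate the erythroid level from stress. In whole blood, more cells of a type and more RNA per cell cannot be told apart.

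**Figure D4:**
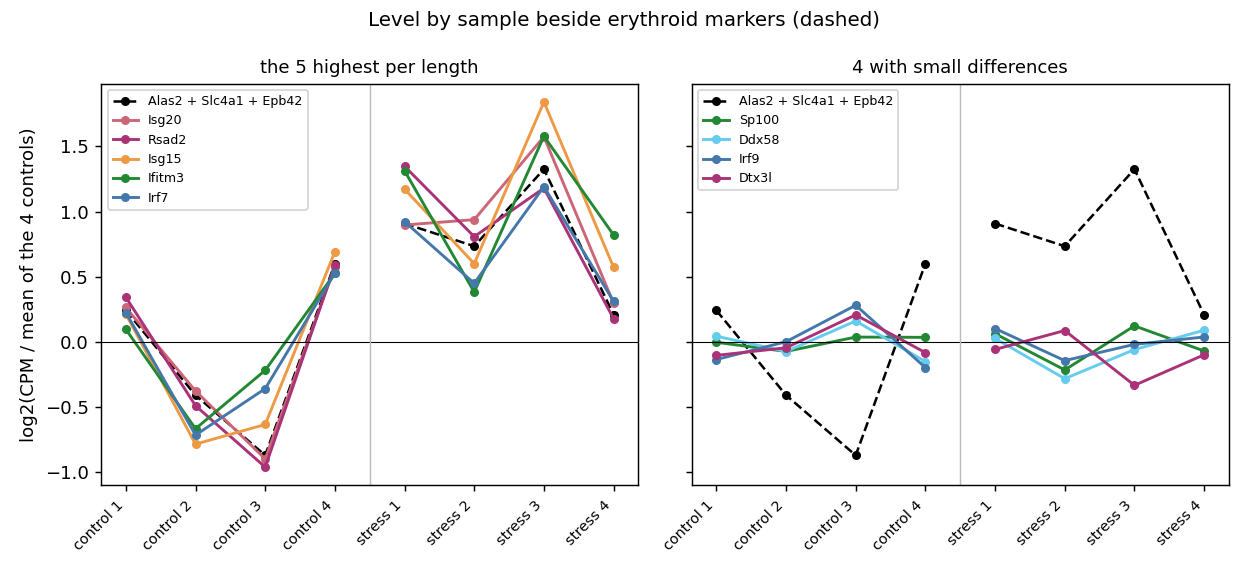
Log2 of the CPM over the mean of the 4 control samples, by sample, for the 5 genes highest per length (left) and 4 genes picked after their values were seen for small differences between groups (right), beside the summed erythroid markers as a dashed line. On the left all 5 lines are highest in control replicate 4 among controls. In stress replicate 4, Ifitm3 (36.2 CPM, against a control mean of 20.5), Isg15, Irf7 and Isg20 lie above the dashed line and Rsad2 slightly below it. On the right the lines of the 4 genes stay near 0.

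Markers of other blood cells differed between the groups as well. Neutrophil markers were called higher in 11 of 14 tested, with a summed level of 202 to 396 CPM in the control group and 621 to 919 CPM in the stress group. Classical monocyte markers were called higher in 9 of 10 (369 to 504 and 760.3 to 1350.0 CPM) and platelet markers in 9 of 9 (1473 to 2164 and 3273 to 3983 CPM). B cell markers were called lower in 7 of 10 (1101 to 1347 and 747 to 978 CPM) and non-classical monocyte markers in 4 of 10 (330 to 409 and 268 to 371 CPM). Of the plasmacytoid dendritic cell markers, cells known as the main makers of interferon-alpha, 7 of 10 were tested and 1 was called lower (88.8 to 106.4 and 76.4 to 99.4 CPM). With TMM scaling none of the 11 T cell or 8 NK cell markers was called by edgeR or limma-voom, nor by DESeq2 with its size factors (0 T cell markers, and 1 NK cell marker higher and 1 lower, at an unadjusted p below 0.05). On total counts alone, 5 neutrophil, 5 classical monocyte and 0 platelet markers were called higher. Called lower there were 10 of 10 B cell, 8 of 11 T cell and 6 of 8 NK cell markers. So were 8 of 10 non-classical monocyte and 7 of 7 plasmacytoid dendritic cell markers. In that scaling 0.444% of all tested genes were called higher and 49.6% lower. No marker of these lists was at 0 in every sample. By flow cytometry of blood after restraint, the paper counted fewer monocytes, T cells, B cells and NK cells, and more neutrophils. The marker levels here are transcript levels, not cell counts. The part of these cells, or of erythroid cells, in the levels of the 37 genes was not tested.

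The interferons themselves were at or near 0 counts. Of 18 type I interferon genes, 17, among them Ifnb1 and all listed interferon-alpha genes, had 0 counts in every sample, and Ifnz had at most 2 counts in any sample. A transcript below the floor of 3 counts per library cannot be detected at this depth, and a change of these genes was therefore not detectable.

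Of 9 genes for the receptor, its kinases and its regulators, edgeR called 2 higher (22.2%, against 10.4% of all tested genes) and 0 lower (against 3.69%). DESeq2 called 3 higher, against 13.5% of all tested genes. On total counts alone 0 were called higher and 5 lower, against 0.444% and 49.6% of all tested genes. Ptpn11, the phosphatase SHP2, rose from 83.01 ± 12.6 to 129 ± 13.2 CPM (SD, n = 4 each; edgeR adjusted p = 0.00843). Socs3, a feedback inhibitor of cytokine receptors, rose by a log2 fold change of 0.51 (standard error 0.14). Socs1, another such inhibitor, named after its values were seen, had the largest log2 fold change of the 9, 0.77 (standard error 0.28), with overlapping groups. It did not pass with edgeR (adjusted p = 0.0802) and did with DESeq2 (0.0458). The receptor chains Ifnar1 and Ifnar2 had log2 fold changes of -0.24 (standard error 0.13) and 0.30 (standard error 0.12). The kinase genes Jak1 and Tyk2 had 0.08 and -0.14, with standard errors of 0.13 and 0.10. Neither the receptor chains, the kinases, Stat2 nor Irf9 passed the test. On total counts alone Ptpn11 and Socs3 had log2 fold changes of -0.10 and -0.20.

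Upstream of the interferons, edgeR called 4 of 19 genes for nucleic acid sensing and its signalling higher (21.1%, against 10.4% of all tested genes) and 0 lower (against 3.69%). DESeq2 called 4 higher and 1 lower, against 13.5% and 5.62% of all tested genes. The 1 lower was Irf8, named after its values were seen (log2 fold change -0.30, DESeq2 adjusted p = 0.0299). All stress samples of Irf8 lay below all control samples, and edgeR did not call it (-0.31, adjusted p = 0.0654). Tlr8, an endosomal receptor, rose from 3.17 ± 0.457 to 7.87 ± 1.23 CPM (SD, n = 4 each), a log2 fold change of 1.33 (standard error 0.16). Nlrx1, a mitochondrial regulator of this pathway, rose by 0.86 and Myd88, the adaptor of most Toll-like receptors, by 0.54 on the log2 scale. Mavs was the other gene that edgeR called higher. On total counts alone 0 of the 19 were called higher and 11 lower, against 0.444% and 49.6% of all tested genes. In that scaling Tlr8, Nlrx1 and Myd88 had log2 fold changes of 0.60, 0.13 and -0.23. Irf3, the factor that starts interferon-beta transcription, had -0.04 (standard error 0.10).

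A second list of interferon-stimulated genes, none of them among the 39, held 56 tested genes. Of these, 7 were called higher (12.5%, against 10.4% of all tested genes) and 3 lower (5.36%, against 3.69%), shares near those of all genes, and the median difference was 0.03 on the log2 scale. With 1 sample left out, 5 to 9 were called higher, against 5.27% to 12.1% of all tested genes. Called lower was 1 gene without control replicate 1, 2 or 3 or stress replicate 2, and 6 genes without stress replicate 4. The genes with the smallest p were relatives of Ifitm3. Ifitm1 rose from 4.36 ± 0.694 to 13.1 ± 3.402 CPM (SD, n = 4 each), without overlap between the groups and with a log2 fold change of 1.59 (standard error 0.18). Ifitm2 rose by 1.57 (standard error 0.18) and Ifitm6 by 1.36 (standard error 0.26). On total counts alone Ifitm1 and Ifitm2 kept log2 fold changes of 0.84 and 0.85, the 2 genes of this list that were called higher there. Of the genes that fell, Trim5, a restriction factor of retroviral capsids, had a log2 fold change of -0.56 (standard error 0.13), Helz2, a helicase, -0.56 and Sp110, a nuclear body protein and relative of Sp100, -0.31.

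Of 18 genes for interferon-gamma inducible GTPases and Irf1, 1 was called higher and 1 lower (5.56% each, against 10.4% and 3.69% of all tested genes). On total counts alone 0 were called higher and 8 lower, against 0.444% and 49.6% of all tested genes. Igtp rose by 0.57 (standard error 0.12) and Gbp9 fell by 0.50 (standard error 0.11) on the log2 scale, and on total counts alone Igtp had -0.22.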

How the data were processed

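RNA of whole blood was sequenced for 4 control and 4 stress samples. The authors deposited unnormalised counts of reads for each gene symbol. The submitters' processing notes name HISAT2, featureCounts and the mm10 build, without versions. Annotation, strandedness and filters are not given in the sources used here. The study named DESeq2 as its test. Samples were grouped by their titles, and no column was left out.

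Genes with 10 or more counts in 4 or more samples were tested with edgeR 4.0.16 in R 4.3.3 (TMM, robust quasi-likelihood test, no covariate, Benjamini-Hochberg over 11718 genes). Standard errors are the log2 fold change over the root of the F statistic. The scripts were tested on simulated data. The 39 genes, the lists and the marker lists were chosen with earlier results of these data known, and some genes of the lists are not reported here. Genes given with a value in every sample were those called, the 5 highest and 5 lowest by log2 fold change, the 5 highest per kilobase, and 1 more for each role. Outside the 39, genes were named if they belong to the receptor complex or were among the 3 with the smallest p in each direction of a list. Coordinates come from GENCODE M21 (GRCm38) and promoters from RefSeq (GRCm38.p6). Alternatives were DESeq2 1.42.0, limma-voom 3.58.1, other scalings and filters, no haemoglobin genes, a replicate block, each sample left out, and, added after seeing the data, an erythroid covariate.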

Additional observations from a re-analysis of the deposited data

How the results depend on the processing

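The number of genes of the list called higher was 7 with edgeR and TMM, against 10.4% of all tested genes. It was 4 with limma-voom (10.5% of all), 0 with total counts alone (0.444%) and 0 with the erythroid covariate (1.66%). It was 3 with no filter beyond 1 count (7.1% of all) and 4 with 10 counts in all 8 samples (11.3%). Leaving out 1 sample gave 0 to 11, against 5.27% to 12.1% of all tested genes. It stayed within 1.5 times of 7 with DESeq2, with its size factors, without the haemoglobin genes and with the replicate block. The number called lower was 0 in the main analysis and 13 with total counts alone, against 3.69% and 49.6% of all tested genes. Genes past the thresholds of the study numbered 0, but 1 with DESeq2, 1 with total counts alone and 0 to 1 with a sample left out. With DESeq2 and without control replicate 4 the gene was Ifitm3, as higher. With total counts alone it was Samd9l, as lower. The median log2 fold change of 0.24 became -0.62 with total counts alone. In the second list, the 7 called higher became 2 with total counts alone and 2 with the erythroid covariate. The 3 called lower became 6 with DESeq2, 29 with total counts alone, 1 with the replicate block and 0 with the erythroid covariate. With a sample left out 1 to 6 were called lower. Of all tested genes, total counts alone called 0.444% higher and 49.6% lower, DESeq2 5.62% lower and the erythroid covariate 1.66% higher. The causes were not tested.

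With total counts alone, log2 fold changes reversed to -0.31 for Ifit2, -0.16 for Rtp4, -0.32 for Lgals3bp, -0.018 for Irf7, -0.14 for Ifit1 and -0.47 for Oas2. Irf9, at -0.00356 in the main analysis, was 0.00809 with DESeq2, 0.0145 with limma-voom, 0.00855 with DESeq2 size factors, 8.80e-05 with no filter and 0.00788 with the replicate block. With the erythroid covariate Stat2 was 0.00308, Parp14 0.0118, Ddx58 0.0738, Irf9 0.21 and Dtx3l 0.0812. With a sample left out, Irf9 lay between -0.0458 and 0.10, Ddx58 between -0.10 and 0.0478, Sp100 between -0.0526 and 0.0691 and Oas2 between -0.11 and 0.47.

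The labels do not say whether the replicate numbers pair the samples, and correlations over 4 samples per group cannot decide it. Deviations of same-numbered samples from their group means correlated above 0.1 in 0 of 4 pairs. Best correlated with their own number were 1 of 4 control and 2 of 4 stress samples. With the replicate block 6 genes of the list were called higher. Ifit2 and Isg15 were lost (adjusted p = 0.0538 and 0.138, edgeR) and Ifit1 was gained (0.0265). The block lowered the standard error of Oasl2 from 0.24 to 0.13 (edgeR adjusted p = 0.00395) and of Oas3 from 0.24 to 0.15 (0.00932). It lowered that of Ifitm3 from 0.27 to 0.21 (0.0162) and raised that of Isg15 from 0.35 to 0.42. Among 11718 genes, 920 were called higher and 240 lower with the block, against 1223 and 432 without it. With total counts alone 52 were called higher and 5811 lower.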
